A study of Mus musculus with 12 samples.

Results

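The 4 genes that encode the enzymes of primary neutrophil granules and 6 genes that myeloid cells switch on later were followed in RNA sequencing of sorted mouse hematopoietic stem cells. The set was fixed by name, with earlier results of these data known, and holds 10 of the 27179 genes in the deposited table. The primary granule genes are Mpo, Elane, Prtn3 and Ctsg. The 6 late genes are S100a8, S100a9, Ltf, Ngp, Camp and Lcn2. Of the 10, 9 passed the filter on low counts and were tested. Ltf did not pass and is described by its counts.

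Total RNA came from stem cells of C57BL/6J mice of 4 genotypes, with 1 library per mouse and 3 mice per genotype. Wild-type mice gave the libraries WT2, WT3 and WT4 (group WT), and Emu-myc mice, which carry Myc under the immunoglobulin heavy chain enhancer of B-lineage cells, gave E1, E2 and E3 (group E). Casp1 -/- Casp11 -/- mice, which lack the inflammatory caspases of the pyroptosis pathway in every tissue, gave C1, C2 and C3 (group C). Emu-myc Casp1 -/- Casp11 -/- mice gave CE1, CE2 and CE3 (group CE). The sources used here do not state the age of the mice or the surface markers of the sort. Levels are given as CPM, the count scaled to the effective library size, and levels of different genes are compared only as CPM per kb of exon.

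Neutrophils store their antimicrobial proteins in granules that form in a fixed order. Primary, or azurophil, granules are filled at the promyelocyte stage with myeloperoxidase (Mpo) and the serine proteases neutrophil elastase (Elane), proteinase 3 (Prtn3) and cathepsin G (Ctsg). Secondary, or specific, granules are filled later, at the myelocyte stage, with lactoferrin (Ltf), the cathelicidin peptide precursor (Camp), neutrophilic granule protein (Ngp) and lipocalin 2 (Lcn2). S100a8 and S100a9 encode the 2 subunits of calprotectin, which is mainly a cytosolic protein of neutrophils and monocytes and not a granule protein. Transcripts of the primary granule enzymes are known from early myeloid progenitors, before any granule is visible.

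Libraries held 24529611 to 34065910 counts. C1 and C3 stood apart with 22900 and 21247 detected genes, and the other libraries had 17310 to 18863. The targeted Casp1 lay between 29.8 and 47.8 CPM in all caspase-intact libraries and between 5.10 and 6.76 CPM in all knockout libraries. Casp4, the annotated name of Casp11, was at 12.04 to 17.2 CPM in the intact libraries and at 7.07 to 13.7 in the knockout libraries. It was 1.40-fold lower in the knockout over both transgene states (adjusted p = 0.0189) but passed neither in C against WT (adjusted p = 0.110) nor in CE against E (adjusted p = 0.177), and the groups overlapped. Myc was at 394 to 447 CPM in the WT libraries and at 424 to 449 in the E libraries, and did not pass the test between them (adjusted p = 0.967), so it does not check the transgene label in these cells. The 12 listed stem cell genes were detected in every library, at widely differing levels. Kit was at 364 to 508 CPM and Hlf at 66.9 to 144 CPM. Procr was at 8.28 to 18.4 CPM, Fgd5 at 5.54 to 13.9, Slamf1 at 3.38 to 5.05 and Hoxb5 at 0.566 to 1.94. Y-linked transcripts were present in all C libraries, in CE1 and in CE2, and near 0 in CE3 and in all WT and E libraries. Caspase knockout and these transcripts therefore largely coincided.

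All 10 genes are on autosomes, and several are neighbours (GRCm38). Prtn3 (chr10:79879667-79883174, plus strand) and Elane (chr10:79886312-79888216, plus strand) are 3137 bases apart, and Prtn3 overlaps Plppr3 on the opposite strand. Mpo lies at chr11:87793784-87804412 (plus strand), where it overlaps the predicted gene Gm11505 on the opposite strand, and Ctsg at chr14:56099885-56102574 (minus strand). S100a8 (chr3:90669071-90670034, plus strand) and S100a9 (chr3:90692630-90695721, minus strand) are 22595 bases apart. Camp (chr9:109847377-109849456, minus strand), Ngp (chr9:110419808-110423012, plus strand) and Ltf (chr9:111019292-111042766, plus strand) lie in this order, with gaps of 570351 and 596279 bases. Lcn2 lies at chr2:32384637-32387739 (minus strand). The sources used here do not state whether the counting used strand, so reads of Plppr3 (337 to 475 CPM) and of Prtn3 could be mixed where the genes overlap.

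The 250 bases upstream of the annotated start are shown for the primary granule genes, which were the abundant ones, and for Ngp as a late gene, all from RefSeq on GRCm38.p6 and read 5′ to 3′ on the strand of the gene. In the primary granule genes, capitals mark AGGAAGT, the letters of a PU.1 and ETS-family site, and AACGG, the letters of a MYB site. In Ngp they mark TTNNGNAA, letters that C/EBP factors can bind, on either strand. The stretches are chr11:87793534-87793783 (Mpo, plus strand), chr10:79886062-79886311 (Elane, plus strand), chr10:79879417-79879666 (Prtn3, plus strand), chr14:56102575-56102824 (Ctsg, minus strand) and chr9:110419558-110419807 (Ngp, plus strand).
Mpo: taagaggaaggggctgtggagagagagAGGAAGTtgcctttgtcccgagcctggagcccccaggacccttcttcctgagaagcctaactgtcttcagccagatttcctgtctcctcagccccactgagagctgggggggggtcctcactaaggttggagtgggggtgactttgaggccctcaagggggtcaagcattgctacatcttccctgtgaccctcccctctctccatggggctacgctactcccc
Elane: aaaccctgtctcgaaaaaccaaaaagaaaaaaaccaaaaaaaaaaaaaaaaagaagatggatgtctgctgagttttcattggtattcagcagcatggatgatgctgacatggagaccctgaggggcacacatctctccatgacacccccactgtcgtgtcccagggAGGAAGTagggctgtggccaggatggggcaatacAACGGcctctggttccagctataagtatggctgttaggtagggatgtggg
Prtn3: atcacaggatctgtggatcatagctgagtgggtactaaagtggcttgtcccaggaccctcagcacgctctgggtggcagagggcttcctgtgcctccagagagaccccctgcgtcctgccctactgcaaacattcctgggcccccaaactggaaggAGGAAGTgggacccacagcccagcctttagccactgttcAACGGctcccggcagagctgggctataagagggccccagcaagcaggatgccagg
Ctsg: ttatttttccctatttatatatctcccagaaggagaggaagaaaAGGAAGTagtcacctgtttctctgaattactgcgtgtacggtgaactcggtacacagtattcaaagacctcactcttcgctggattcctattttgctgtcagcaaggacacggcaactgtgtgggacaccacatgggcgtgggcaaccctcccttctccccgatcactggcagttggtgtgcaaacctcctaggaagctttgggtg
Ngp: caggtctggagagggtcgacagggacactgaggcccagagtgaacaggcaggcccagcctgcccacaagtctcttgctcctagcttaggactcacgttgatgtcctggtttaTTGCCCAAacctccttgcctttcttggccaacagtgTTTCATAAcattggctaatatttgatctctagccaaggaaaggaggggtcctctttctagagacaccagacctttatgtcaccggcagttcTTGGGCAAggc

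AGGAAGT was found in the 300-base windows (250 bases before to 50 after the start, both strands) of 4 of 4 primary granule genes and in 1 of 6 late genes, S100a8. It was in 9.35% of all 32851 windows. Its first base was 223 bases upstream of the start in Mpo, 206 in Ctsg, 84 in Elane and 94 in Prtn3. Elane and Prtn3 also held AACGG, at 50 and 55 bases upstream, so these neighbouring genes carried both runs of letters in the same order. AACGG was in 2 of 4 primary granule genes, in 0 of 6 late genes and in 17.4% of all windows. TTNNGNAA was in 0 of 4 primary granule genes and in 5 of 6 late genes, Camp being the exception, and in 40.7% of all windows. These motifs were chosen with the windows in view, and a match is a description of letters only.

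Stem cell libraries of every genotype held much RNA of the 4 primary granule genes and very little of the 6 late genes. Listed genes of other cell types were also present, with Ly6c2 at 140 to 308 CPM, Itga2b at 239 to 335 and Car2 at 224 to 343. Others, such as Hbb-bs at 0 to 0.450 CPM, were near 0. Which of the sorted cells carried the granule RNA was not tested. Mpo ranked 1 to 3 by count among all genes in each of the 12 libraries, and took 0.574 to 0.882% of all counts. The 4 primary granule genes together took 0.876 to 1.26% of the counts, and the 6 late genes 0.000492 to 0.00260%. Per length, the mean over 12 libraries was 2102 CPM per kb for Mpo, 1035 for Elane, 955 for Prtn3 and 741 for Ctsg. The same mean was 5.79 CPM per kb for S100a8, 4.82 for S100a9, 1.61 for Camp, 0.830 for Lcn2, 0.681 for Ngp and 0.0587 for Ltf.

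In every library Mpo was above Elane, Prtn3 above Ctsg, and Ctsg above S100a8 on this per-length scale. Elane and Prtn3 changed places, with Elane above in 8 of 12 libraries. S100a8 was above S100a9 in 9 of 12, and Camp above Lcn2 in 7 of 12. The summed CPM of the primary granule genes was 364 times that of the late genes in E1, the lowest ratio, and 1778 times in E2, the highest, both from the same genotype.

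**Figure D1:**
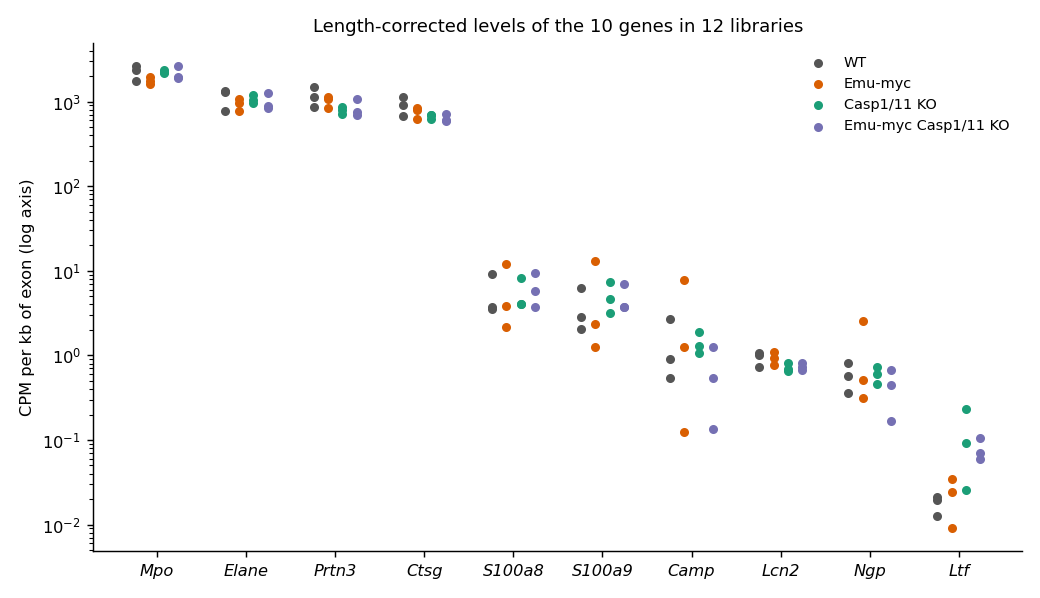
Levels of the 10 genes per kb of exon, on a log axis, with 1 point per library coloured by genotype. The 4 primary granule genes lie between 581 and 2644 CPM per kb, and no library of a late gene reaches 14 CPM per kb.

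Mpo, the heme peroxidase that makes hypochlorous acid, was at 8061, 5964 and 9054 CPM in WT2, WT3 and WT4 and at 5965, 5456 and 6672 in E1, E2 and E3. It was at 8033, 7631 and 7389 CPM in C1, C2 and C3 and at 6586, 6534 and 9009 in CE1, CE2 and CE3. Group E was low throughout, but WT3, CE1 and CE2 lay inside its range, and the highest libraries were WT4 and CE3. Elane, the elastase of primary granules, was at 1297, 770.2 and 1287 CPM in WT2 to WT4 and at 942, 755 and 1064 in E1 to E3. It was at 1189.6, 1027 and 945 CPM in C1 to C3 and at 882, 816 and 1248 in CE1 to CE3. The ordering of libraries was close to that for Mpo, with WT3 and E2 at the low end, and all groups overlapped.

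Prtn3, the protease next to Elane, was at 2599.6, 1476 and 1984 CPM in WT2 to WT4 and at 1959, 1471 and 1837 in E1 to E3. It was at 1507, 1382 and 1242 CPM in C1 to C3 and at 1314, 1206 and 1867 in CE1 to CE3. Most knockout libraries were low, whereas CE3 was at the level of E3. Ctsg, a chymotrypsin-like protease, was at 1183, 706 and 940.0 CPM in WT2 to WT4 and at 822, 641 and 859 in E1 to E3. It was at 725, 723 and 639 CPM in C1 to C3 and at 599.8, 617 and 732 in CE1 to CE3. The highest knockout library, CE3, was above WT3 and E2 and below the other caspase-intact libraries.

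**Figure D2:**
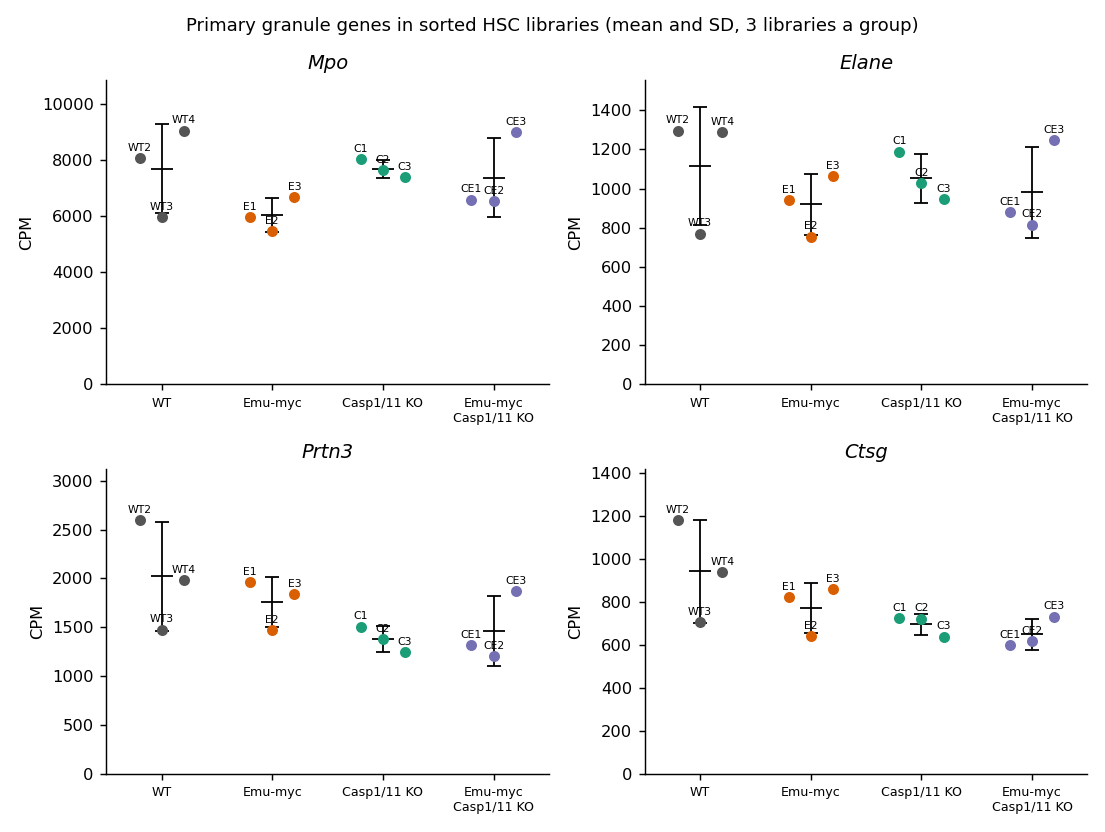
CPM of the 4 primary granule genes by genotype, with 1 labelled point per library and the mean and SD of 3 libraries. In each panel the genotypes compared overlap, and Prtn3 in C1 to C3 lies between 1242 and 1507 CPM against 1476 to 2599.6 in WT.

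No granule gene passed the test for the Emu-myc transgene. In E against WT, 0 of the 9 tested genes passed (edgeR quasi-likelihood test, Benjamini-Hochberg adjusted over 14473 genes), where 0.0829% of all genes did. All 9 had overlapping E and WT libraries, where 8.02% of all genes had libraries that did not overlap. The primary granule genes were 1.15-fold to 1.28-fold lower in E, with Mpo at a log2 fold change of -0.35 (SE 0.16, adjusted p = 0.748). Their median log2 fold change was -0.28, against -0.00 over all genes tested. In CE against C, 0 of 9 passed (0.207% of all genes) and all 9 overlapped (14.9% of all genes did not), and Mpo was at -0.06 (SE 0.16, adjusted p = 0.999). With both backgrounds joined, 6 libraries against 6, 0 of 9 passed (0.539% of all genes), and Mpo was at -0.21 (SE 0.11, adjusted p = 0.644). The effect of the transgene on the 2 caspase backgrounds was not shown to differ for any of the 9 genes (adjusted p = 0.9997 each, 0% of all genes called in edgeR and 305 at an unadjusted p under 0.05).

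When both transgene states were joined, 2 of the 9 tested genes passed for the caspase knockout, Prtn3 and Ctsg, a share close to the 21% of all genes that passed. Over 6 knockout and 6 intact libraries, Prtn3 fell 1.33-fold (log2 -0.41, SE 0.14, adjusted p = 0.0499) and Ctsg fell 1.27-fold (log2 -0.35, SE 0.12, adjusted p = 0.0471). Mpo was at a log2 fold change of 0.14 (SE 0.11, adjusted p = 0.387) and Elane at 0.00 (SE 0.14, adjusted p = 0.989). Both that passed were lower, as were 11.8% of all genes, so the count is no result about granule genes. Neither Mpo nor Elane passed, which does not show that they differ from Prtn3 and Ctsg. The 2 groups of 6 overlapped for every one of the 9, where 8.08% of all genes had groups that did not overlap.

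The separate comparisons did not reach the threshold. In C against WT, 0 of 9 passed (0.656% of all genes) and all 9 overlapped (26.3% of all genes did not), with Prtn3 at -0.55 (SE 0.20, adjusted p = 0.117) and Ctsg at -0.44 (SE 0.16, adjusted p = 0.130). In CE against E, 0 of 9 passed (1.58% of all genes) and all 9 overlapped (29.9% of all genes did not), with Prtn3 at -0.26 (SE 0.20, adjusted p = 0.447), Ctsg at -0.25 (SE 0.16, adjusted p = 0.376) and Mpo at 0.29 (SE 0.16, adjusted p = 0.296). The joined comparison uses the libraries of both, so it is no separate evidence.

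The calls for Prtn3 and Ctsg lie at the threshold, and Y-linked transcripts move with them. With a covariate for Y-linked transcripts, Prtn3 was at 0.05 (SE 0.25, adjusted p = 0.928) and Ctsg at -0.13 (SE 0.23, adjusted p = 0.787), and caspase loss and these transcripts could be separated only through CE3. Without C1 and C3, which stand apart by the number of genes detected, Prtn3 was at -0.40 (adjusted p = 0.242) and Ctsg at -0.31 (adjusted p = 0.273). Leaving out WT2, the highest library for both genes, gave -0.29 for Prtn3 (adjusted p = 0.143) and -0.24 for Ctsg (adjusted p = 0.129). In bulk RNA, a smaller share of cells that carry a transcript and less of it per cell cannot be told apart.

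**Figure D3:**
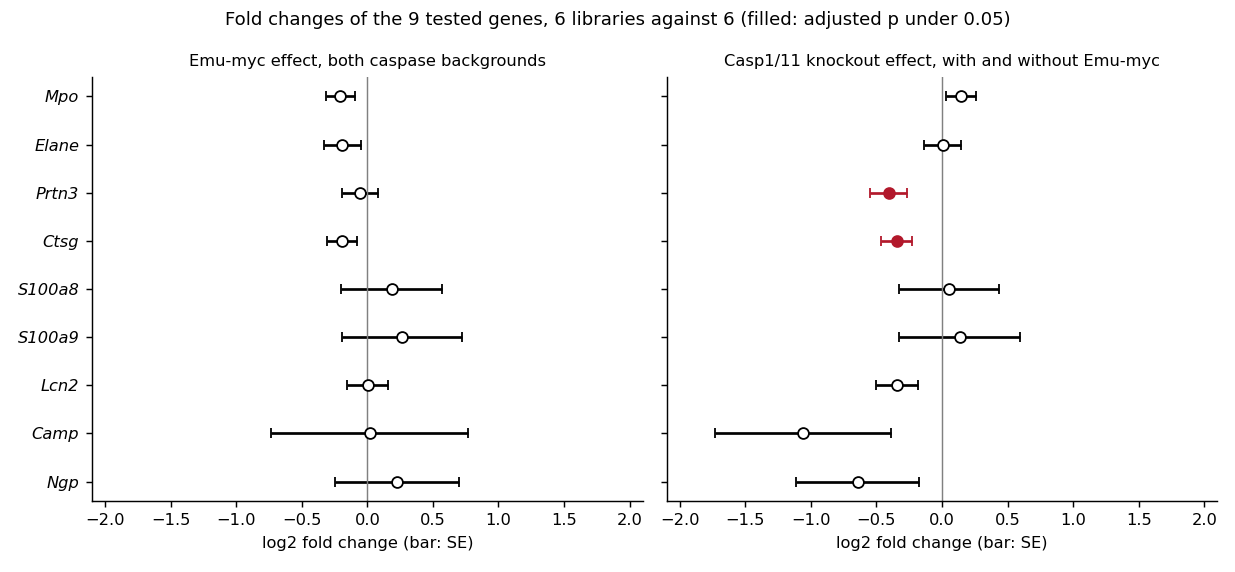
Log2 fold changes of the 9 tested genes with their standard errors for the transgene and for the caspase knockout, each over 6 libraries against 6. Filled symbols passed at an adjusted p under 0.05, which holds only for Prtn3 (-0.41) and Ctsg (-0.35) in the knockout panel.

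Ratios between primary granule genes within a library separated the caspase genotypes without overlap for 3 of 6 pairs, which no level of these genes did. Such a ratio does not depend on the scaling of the library. Mpo over Prtn3, in CPM, was 3.10, 4.04 and 4.56 in WT2 to WT4 and 3.05, 3.71 and 3.63 in E1 to E3. It was 5.33, 5.52 and 5.95 in C1 to C3 and 5.01, 5.42 and 4.82 in CE1 to CE3. Every knockout library was above every caspase-intact library, and CE3, without Y-linked transcripts, was the lowest of the 6. Mpo over Ctsg was 6.81 to 9.63 in the 6 intact libraries and 10.6 to 12.3 in the 6 knockout libraries, with CE3 the highest. Elane over Prtn3 was 0.481 to 0.649 against 0.668 to 0.789, and here too the groups did not overlap, although WT4 and CE3 were close.

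The other 3 ratios, Mpo over Elane, Elane over Ctsg and Prtn3 over Ctsg, overlapped between the caspase groups. All 6 ratios overlapped between Emu-myc and the other libraries. Of all other tested genes, 2.42% had a ratio to Mpo that did not overlap between the caspase groups, and 0.58% a ratio to Elane. The 6 ratios were computed after the values had been seen, and no test is given. With the Y-linked covariate, Mpo was at 0.52 (SE 0.21) and Elane at 0.45 (SE 0.25), beside 0.05 for Prtn3 and -0.13 for Ctsg. That fit told caspase loss and these transcripts apart only through CE3, and the distance between the genes was not tested.

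**Figure D4:**
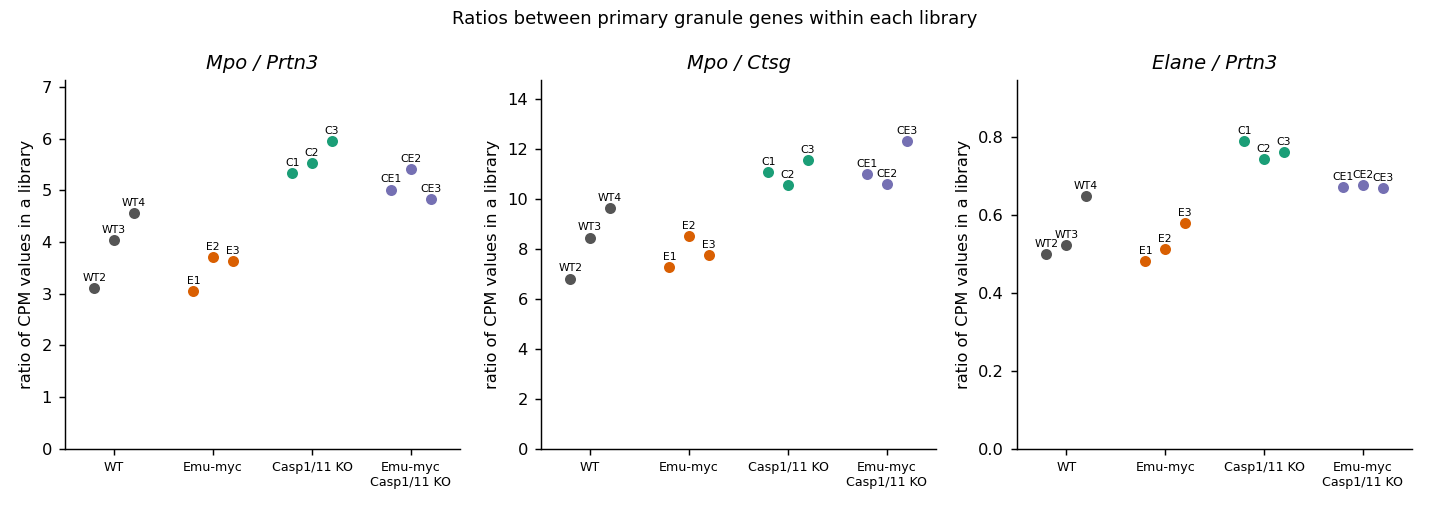
Ratios of CPM values within each library for 3 pairs of primary granule genes, with 1 labelled point per library and axes from 0. In all 3 panels the 6 knockout libraries lie above the 6 caspase-intact libraries, for example at 4.82 to 5.95 against 3.05 to 4.56 for Mpo over Prtn3.

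Correlations between these genes use the same values as the ratios, so they are no second observation. Over 12 libraries, the log2 CPM of Mpo followed that of Elane (Pearson r = 0.896, Spearman rho = 0.937) and that of Prtn3 followed Ctsg (r = 0.932, rho = 0.937), while Mpo and Prtn3 were less alike (r = 0.365, rho = 0.469). Elane and its neighbour Prtn3 were at r = 0.677. Once group means were removed, all 6 pairs of primary granule genes lay between 0.778 and 0.958, with Mpo and Prtn3 at 0.811. The libraries share the genotypes, so these values are a description.

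Lcn2, an iron-siderophore binding protein, stayed between 1.74 and 2.85 CPM. It was at 2.81, 1.93 and 2.64 CPM in WT2 to WT4 and 2.42, 1.99 and 2.85 in E1 to E3. It was at 2.14, 1.82 and 1.74 CPM in C1 to C3 and 1.90, 1.77 and 2.14 in CE1 to CE3. Its pattern over libraries was close to that of Prtn3 (r = 0.902, rho = 0.895) and Ctsg (r = 0.881), and not to that of S100a8 (r = 0.253). In the joined caspase comparison Lcn2 was at a log2 fold change of -0.34 (SE 0.16, adjusted p = 0.136), which did not pass.

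S100a8, S100a9, Camp and Ngp varied most within group E, where 1 library was high. S100a8 was at 8.30, 1.52 and 2.65 CPM in E1 to E3 and at 2.59, 2.43 and 6.28 in WT2 to WT4. It was at 5.70, 2.77 and 2.80 CPM in C1 to C3 and at 2.56, 4.04 and 6.60 in CE1 to CE3. E1 was highest and E2 lowest of all 12, with WT4, C1 and CE3 next below E1. S100a9, its partner in calprotectin, was at 6.88, 0.664 and 1.23 CPM in E1 to E3 and at 1.498, 1.08 and 3.29 in WT2 to WT4. It was at 3.84, 1.67 and 2.41 CPM in C1 to C3 and at 1.97, 1.97 and 3.68 in CE1 to CE3. The same libraries were high for both, and over 12 libraries the 2 genes were at r = 0.937 (rho = 0.888, and r = 0.898 without CE3 and E1).

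Camp, the source of the cathelicidin peptide, had 140 counts in E1, 3 in E2 and 24 in E3, or 5.84, 0.0949 and 0.949 CPM. It was at 0.694, 0.406 and 2.04 CPM in WT2 to WT4, at 1.42, 0.984 and 0.803 in C1 to C3, and at 0.415, 0.102 and 0.953 in CE1 to CE3. Ngp, a cystatin-like protein of specific granules, had 74 counts in E1 and 6 to 27 in every other library, or 3.08 CPM in E1 and 0.208 to 0.986 in the others. E1 was thus the highest of the 12 libraries for S100a8, S100a9, Camp and Ngp, but not for Lcn2 or Ltf, which were highest in E3 and C1.

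The fitted values of these genes depended on E1. In E against WT, Camp was at a log2 fold change of 1.14 (SE 0.91, adjusted p = 0.797) and Ngp at 0.92 (SE 0.65, adjusted p = 0.779). Without E1 these were -1.005 and -0.47, and S100a9 went from 0.57 to -1.03, none of them past the threshold. In CE against E, Camp was at -2.18 (SE 0.97, adjusted p = 0.199) with E1 and at -0.03 without it. Of the 10 listed mature neutrophil markers, G0s2 was at 0 in all 12 libraries, Ly6g at 0 to 0.130 CPM, Retnlg at 0 to 0.417 and Mmp9 at 0 to 0.656. Others on the list were present in every library, with Csf3r at 153 to 266 CPM, Padi4 at 37.4 to 85.3, Cxcr2 at 3.94 to 8.42 and Trem1 at 3.42 to 10.3. Of the 10, Retnlg (0.417 CPM) and Cxcr2 (8.42 CPM) were highest in E1, and no other marker was. Mmp9 was at 0 CPM in E1, and its Mmp8 (0.875 CPM) was below that of WT2, E2 and E3. Its Ly6g (0.0834 CPM) was below that of WT4 (0.130 CPM), but these were only 2 and 3 counts. Outside the 10, Chil3 was highest in E1 (0.750 CPM), whereas Cd177 in E1 (0.250 CPM) was below all WT libraries. The summed level of all 10 markers, most of it Csf3r, was 239 to 285 CPM in E, 206 to 311 in WT, 279 to 282 in C and 294 to 366 in CE. The part of other cells in the E1 values was not tested.

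Ltf, the gene of lactoferrin, was the rarest of the 10, and its counts leaned toward the caspase knockout. It had 2, 2 and 1 counts in WT2 to WT4 and 2, 1 and 3 in E1 to E3. It had 23, 3 and 10 counts in C1 to C3 and 7, 6 and 11 in CE1 to CE3. The sums were 5 counts in WT (exact Poisson 95% interval 1.62 to 11.7), 6 in E (2.20 to 13.1), 36 in C (25.2 to 49.8) and 24 in CE (15.4 to 35.7), where intervals cover counting error only. CE lay above E in CPM without overlap (0.204 to 0.361 against 0.0316 to 0.119), whereas C2 (0.0894) lay inside the range of E. Of all tested genes, 29.9% also had CE and E libraries that did not overlap. With the groups of each of the 10 genes ordered by mean CPM, 29 of 30 neighbouring pairs of groups overlapped, and CE and E for Ltf were the exception. Over all tested genes, 8.89% of such pairs did not overlap.

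With no filter on low counts, the fit gave Ltf a log2 fold change of 2.17 (SE 0.62, adjusted p = 0.00833) for the joined caspase comparison. In that fit 3479 of all 24429 genes passed. Ltf had failed the filter on low counts, so this value is no evidence of a knockout effect. Without C1 and C3, Ltf was at 1.14 (SE 0.65). Ltf had 23 counts in C1, where 22900 genes were detected, and 11 in CE3, where Y-linked transcripts were near 0. The part of detected genes or of Y-linked transcripts in the Ltf counts was not tested.

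**Figure D5:**
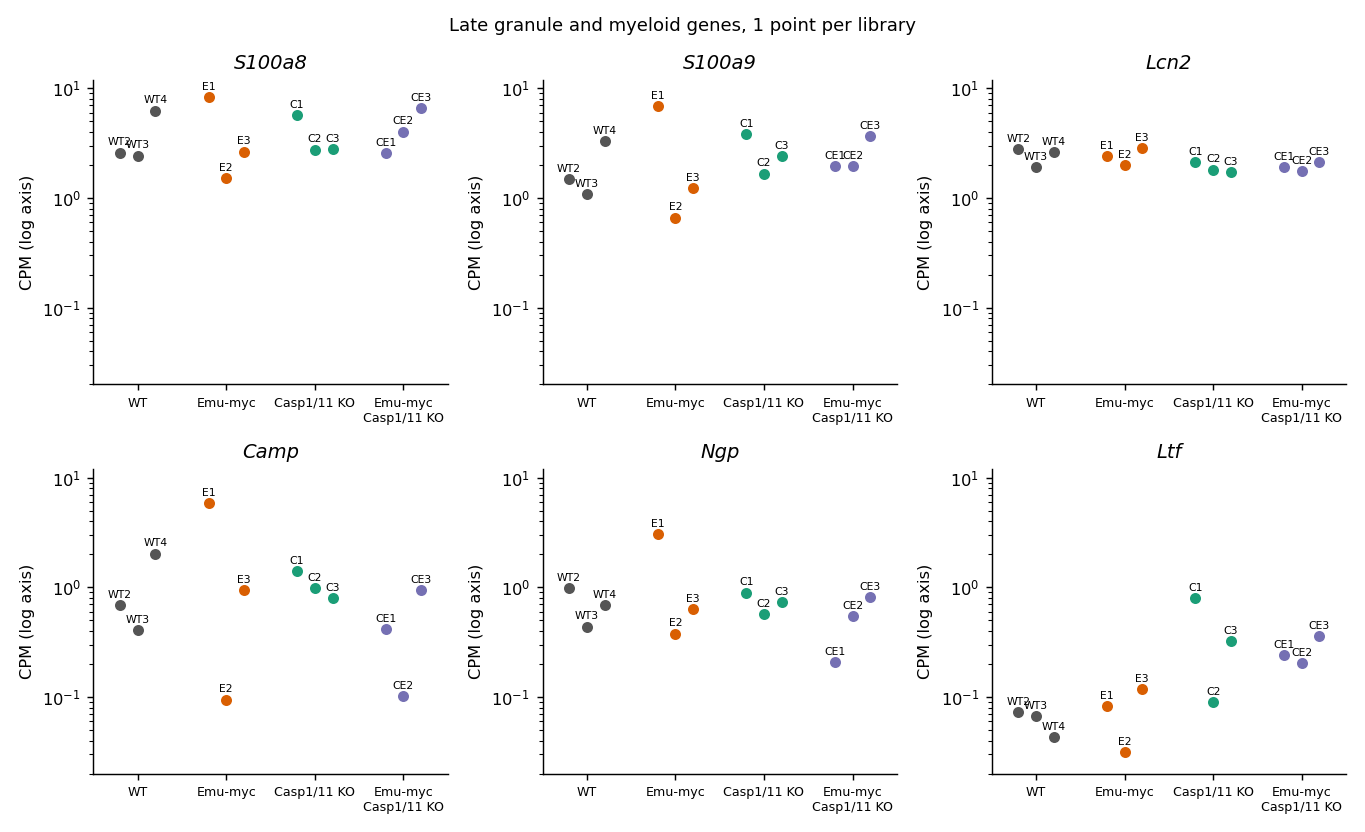
CPM of the 6 late genes by genotype on a log axis, with 1 labelled point per library. E1 is the top point for S100a8, S100a9, Camp (5.84 CPM) and Ngp (3.08 CPM), Lcn2 stays between 1.74 and 2.85 CPM, and Ltf stays under 0.8 CPM.

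Among other genes of primary granules and of the making of their enzymes, 14 of 15 listed genes were tested. In the joined caspase comparison 1 rose and 4 fell, where 21% of all genes passed and 11.8% passed as lower, with a list median of -0.11 beside 0.00 over all genes tested. Calr, the chaperone calreticulin that binds newly made myeloperoxidase, rose (log2 0.31, SE 0.08, adjusted p = 0.0160). Srgn, the proteoglycan that holds granule proteases, fell (log2 -0.30, SE 0.08, adjusted p = 0.0168). Also among those that fell, and named after their values were seen, were Ctsc, which removes the activation dipeptide of the granule proteases (log2 -0.24, SE 0.06, adjusted p = 0.0190), and the chaperone Canx (log2 -0.27, SE 0.09, adjusted p = 0.0448). None of the 14 passed in the other comparisons. On this list Lyz2 was at 142 to 202 CPM and Srgn at 433 to 667 CPM, while Lyz1 was at 0.0633 to 0.358 CPM. Which cells carried these transcripts was not tested.

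Among other secondary and later granule genes, 21 of 34 listed genes were tested, and 13 were too low. The levels on this list ranged widely. Cyba, a subunit of the phagocyte oxidase, was at 97.6 to 165 CPM, Hp, the gene of haptoglobin, at 55.9 to 106, Slpi at 25.96 to 70.7 and Pglyrp1 at 13.9 to 27.2. Olfm4 was at 0 to 0.0791 CPM and Stfa1 at 0 in all libraries. For the joined transgene comparison, Itgam, the alpha chain of the Mac-1 integrin, rose (log2 0.50, SE 0.10, adjusted p = 0.0287), and Trem1, an activating receptor, fell (log2 -0.87, SE 0.17, adjusted p = 0.0294). In this comparison 0.539% of all genes passed. Both separated the 6 libraries with the transgene from the 6 without, where 0.746% of all genes did. For the joined caspase comparison, Anxa1 fell (log2 -0.28, SE 0.08, adjusted p = 0.0275) and the chemokine receptor Cxcr2 fell at the threshold (log2 -0.37, SE 0.13, adjusted p = 0.04996). These were 2 of the 21 tested, where 21% of all genes passed and 11.8% passed as lower, so the count is no result about this list. The list medians were -0.14 for the transgene and -0.05 for the knockout.

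The factors that drive the granule program in progenitors were present. Cebpa, which starts granulocyte differentiation, was at 223 to 367 CPM, Spi1, the gene of PU.1, at 226 to 321, Myb at 476 to 685, and Gfi1 at 53.7 to 97.8. Cebpe, which turns on the secondary granule genes, was at 12.1 to 29.2 CPM. Of 16 listed factors and receptors, all tested, Klf4, a factor of monocyte differentiation and an early response gene, rose in the knockout both without the transgene (a log2 fold change of 1.15, adjusted p = 0.0460) and with it (1.59, adjusted p = 0.0118), and so in the joined comparison (1.37). Il6ra, the interleukin-6 receptor, rose in the joined comparison (log2 0.47, SE 0.10, adjusted p = 0.00736). The joined comparison thus called 2 of 16, beside 21% of all genes. Of all genes, 0.656% passed in C against WT and 1.58% in CE against E. The remaining 14 passed in no comparison, and Cebpe in E against WT was at -0.61 (SE 0.21, adjusted p = 0.629).

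Of 12 myeloid progenitor genes, all tested, Clec12a, a C-type lectin of myeloid cells, fell in CE against E (a log2 fold change of -0.67, adjusted p = 0.0398) and in the joined caspase comparison (log2 -0.53, SE 0.10, adjusted p = 0.00403). Mgst1, a glutathione transferase, fell in the joined caspase comparison (log2 -0.45, SE 0.14, adjusted p = 0.0348), and Rgcc fell in the joined transgene comparison (log2 -0.59, SE 0.12, adjusted p = 0.0337). The joined caspase comparison thus called 2 of 12, beside 21% of all genes, 11.8% as lower. Of all genes, 1.58% passed in CE against E and 0.539% in the joined transgene comparison. In E against WT all 12 were lower, with a median of -0.23 beside -0.00 over all genes tested, and none passed. With the Y-linked covariate none of the pathway calls passed. Only 2 of 14473 genes passed the joined caspase comparison in that fit, against 3042 without the covariate, so this loss is not particular to the listed genes. In the joined caspase comparison Klf4 was then at 0.86 (adjusted p = 0.178) and Calr at 0.41 (adjusted p = 0.211). Mgst1 went from -0.45 to -0.16 (adjusted p = 0.774) and Cxcr2 from -0.37 to -0.02 (adjusted p = 0.977). Other fold changes grew in size, such as Il6ra from 0.47 to 0.64, Srgn from -0.30 to -0.48 and Anxa1 from -0.28 to -0.54. Without C1 and C3, the calls that use group C were lost except that of Klf4 in the joined comparison (adjusted p = 0.0156).

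Genes whose pattern over the 12 libraries was most like the mean of the 4 primary granule genes were sought among 11088 genes whose mean log2 CPM was 1 or more. They were Mgl2 (r = 0.975), Fcgr3 (r = 0.964), Hp (r = 0.963), Ly6c2 (r = 0.958) and Cldn15 (r = 0.947). For the 6 late genes they were Slc8b1 (r = 0.897), Il17rc (r = 0.893), Irf8 (r = 0.886), Zfp384 (r = 0.850) and Ncf1 (r = 0.841). For Mpo alone they were C3 (r = 0.951), Plod3 (r = 0.947), Trmt44 (r = 0.940), Mapkapk3 (r = 0.931) and Ltb4r1 (r = 0.928). Each list is the top of a ranking over 12 libraries that share 4 genotypes, and the values are a description.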

How the data were processed

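The deposited table held whole-number counts per NCBI Gene number for all 12 libraries, with no normalization found in the values. Reads were aligned with STAR 2.5.3 to mm10, per the submitters' processing notes. The counter, its annotation and strandedness are not stated in the sources used here. RefSeq symbols matched 25275 of 27179 gene numbers. Exon lengths, positions and overlaps are from GENCODE (GRCm38), and upstream sequences from RefSeq.

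All 12 libraries were fitted together with edgeR 4.0.16 (R 4.3.3): TMM factors, filterByExpr by group, group means, quasi-likelihood F tests (two-sided), and Benjamini-Hochberg adjustment over 14473 genes with a threshold of 0.05. The common biological coefficient of variation was 0.139. The standard error is the log2 fold change divided by the square root of F. The joined comparisons average the effects over the other genotype. The comparisons share libraries: E against WT shares WT with C against WT and E with CE against E, and CE against C shares its groups likewise. The pipeline was tested on simulated data. CPM use the effective library sizes, and log2 CPM a prior count of 2.

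The genes and lists were chosen with earlier results of these data known. Named are all 10 granule genes, up to 3 genes per list that passed in a comparison (smallest p first; where none passed, 2 as values), and the 5 genes most alike in pattern. A result under this rule is not reported here. Lists overlap: Csf3r, Prss57 and Ms4a3 are in 2 lists each. Alternatives were RLE factors, no filter, a stricter filter (1 CPM in 6 libraries), DESeq2 1.42.0, limma 3.58.1 voom with quality weights, only the groups compared, a replicate block, a covariate marking libraries where Y-linked transcripts summed to over 1 CPM, each library left out, and C1 and C3 left out together, which leaves 1 library in C assumed to vary as the rest do. The labels name 3 mice per genotype and no batch.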

Additional observations from a re-analysis of the deposited data

How the results depend on the processing

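In the joined caspase comparison 2 of the 9 granule genes passed. With RLE factors 0 passed (Prtn3 adjusted p = 0.0533, Ctsg 0.0501), and 0 with the Y-linked covariate, where 3018 and 2 of all genes did. With no filter on low counts 4 of 10 passed, among them Camp (adjusted p = 0.0123) and Ltf (0.00833). In that fit 3479 of all 24429 genes passed. The stricter filter, DESeq2 and voom each gave 2, beside 3045, 3595 and 4320 of all genes. Leaving out 1 library gave 0 to 3, with 0 without C1, while 1594 (without C3) to 4667 (without WT4) of all genes passed. Prtn3 and Ctsg both passed in 4 of 12 such removals (CE3, E2, WT3 or WT4 left out). Over the removals, adjusted p ran from 0.0149 to 0.143 for Prtn3 and from 0.0103 to 0.129 for Ctsg. In 7 removals the single gene that passed was Ltf, which then passed the filter. Ltf did so only in removals that kept both C1 and CE3, the knockout libraries where it was highest (0.795 and 0.361 CPM). The filter thus let it in through the group where it was high, so these passes are no evidence of a knockout effect. With the Y-linked covariate Prtn3 turned to a log2 fold change of 0.052 (adjusted p = 0.928). In C against WT, where none passed, 2 did with no filter (Prtn3 and Ctsg), beside 1554 of all 24429 genes. Removals gave 0 to 2, the 2 without WT3 (Prtn3 adjusted p = 0.0396, Ctsg 0.0354), beside 781 of all 14872 genes. In CE against E, 1 passed with no filter (Camp, adjusted p = 0.000704), beside 1172 of all 24429 genes. The cause of these differences was not tested, beyond the genes or libraries each setting adds or removes. In the other 4 comparisons no alternative gave a granule gene.

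Of 1048 recomputed fold changes of granule genes, 1018 kept their side of the threshold, 6 passed newly, 23 no longer passed and 1 reversed. Most had not passed as reported, so keeping their side says little. Of the 2 calls, both in the joined caspase comparison, Prtn3 passed in 8 of 20 alternatives and Ctsg in 8 of 20. Over the 1048 values a sign turned in 150, 149 of which had no adjusted p under the threshold in either fit. With the replicate block, 0 granule genes passed in the joined caspase comparison (Prtn3 adjusted p = 0.0629, Ctsg 0.0670). WT4 is the only library numbered 4, so the block takes it out of the comparisons. Once group means were removed, same-numbered libraries correlated between -0.244 and 0.166 over 15 pairs. Pairs with unlike numbers were not compared, so these values do not settle whether the numbers pair the mice. Counts over all genes moved far more. They ran from 1 to 217 in E against WT (12 as reported), 0 to 203 in CE against C (30), 1 to 2258 in C against WT (95), 2 to 1475 in CE against E (229), 24 to 339 for the joined transgene comparison (78) and 2 to 4667 for the joined caspase comparison (3042), and reached 39 for the difference (0). Late genes rest on few counts, down to 1 in a library for Ltf.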
